A study of Mus musculus with 6 samples.

Results

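Wnt signalling genes were examined in cultured mouse hepatic stellate cells treated with obeticholic acid (OCA) or with its vehicle, dimethyl sulfoxide (DMSO). The set holds 63 of the 24940 genes in the deposited table, chosen by gene symbol: every Wnt ligand, Frizzled receptor, Sfrp, Dkk, Dact, R-spondin and Dishevelled gene, together with Lypd6, Lrp5, Lrp6, Ror1, Ror2, Ryk, Axin1, Axin2, Lef1, Tcf7, Tcf7l1, Tcf7l2, Rnf43, Znrf3, Frzb and Wif1. The symbols alone decide membership, although the set was proposed with earlier results of these data known. OCA is a modified bile acid and a potent agonist of FXR, the bile acid receptor of the nucleus. Stellate cells are the pericytes of the liver sinusoid; they store vitamin A and become matrix-producing myofibroblasts when activated.

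Wnt proteins are secreted lipid-modified ligands that bind Frizzled receptors. With the co-receptors Lrp5 and Lrp6 they act through Dishevelled proteins to stop the Axin complex from degrading beta-catenin, which then enters the nucleus and switches on genes with TCF/LEF factors. Other ligand and receptor pairs, among them Wnt5a with Ror or Ryk receptors, act without beta-catenin. Secreted inhibitors such as Sfrp and Dkk proteins lower the signal, R-spondins raise it by removing the ubiquitin ligases Znrf3 and Rnf43, and in the liver Wnt signals are best known for setting the metabolic zones of hepatocytes.

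The RNA was polyadenylated RNA of primary cells taken from female mice of the strain C57BL/6JBomTac. In 3 OCA libraries the cells had received 10 µM OCA, and in 3 DMSO libraries the vehicle alone, both for 6 hours starting 2 days after isolation. The labels give no genetic change in either group and no age of the mice. Whether replicate libraries stand for different mice or different dishes is not stated, so p-values here cover the spread among these 6 libraries alone, and that spread may be technical. Freshly plated stellate cells are a model of cells that are already leaving quiescence on plastic.

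Column totals were 12829226 to 13234570 counts in the OCA libraries and 12260882 to 16336240 in the DMSO libraries. The cell type label was checked against marker genes. All 10 stellate markers were tested, and their summed level was 1681 to 2077 CPM (counts per 1000000 on TMM-scaled library sizes) in OCA libraries and 1964 to 2134 CPM in DMSO libraries. Reln and Rgs5, both on that list, were lower with OCA at an adjusted p under 0.05 in edgeR, which is 20% of the list. Of all tested genes, 3.03% were lower. On the log2 scale, 5 of the 10 markers lay above 0 for OCA over DMSO and 5 below, with a median of 0.04. For Lrat, Des, Cygb and Colec11 all OCA libraries stood above all DMSO libraries, though none of these passed. For Reln and Rgs5 all OCA libraries stood below. Of all tested genes, 11.6% had all OCA libraries above and 11.3% had all below. The 6 myofibroblast markers summed to 1903 to 2276 CPM with OCA and 2020 to 2361 CPM with DMSO. Hepatocyte, endothelial, leukocyte, cholangiocyte and mesothelial marker lists each summed to at most 9.82 CPM in every library, and Krt7 was at 0 throughout. Markers of portal fibroblasts and vascular smooth muscle summed to 37.3 to 40.3 CPM with OCA and 38.4 to 44.5 CPM with DMSO, nearly all of it Myh11, with Thy1 at 0. The libraries differed in how they bore on the number of lower genes over the whole table: it was 384 with all libraries and 758 without OCA B, but between 104 and 230 when any other single library was left out, and 605 without OCA B and DMSO A together.

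Of the 63 genes, 33 had enough counts to be tested. OCA raised 2 of them, Lypd6 and Fzd9, and lowered 3, Dact1, Wnt4 and Fzd7, at an adjusted p under 0.05 in the quasi-likelihood test of edgeR, adjusted by Benjamini-Hochberg over 12687 genes. The 2 higher genes were 6.06% of the tested members, against 2.18% of all tested genes, and the 3 lower genes were 9.09%, against 3.03%. Lypd6 is in the set by its own symbol and not through a family pattern. The set was proposed with earlier results of these data known, so these shares are description only. The calls of Wnt4 and Fzd7 were lost when some single libraries were left out. The other 28 of the 33 tested members did not pass. The median log2 fold change of OCA over DMSO was -0.05 over the tested members and 0.00 over all tested genes, and 20 of the 33 members lay below 0. All OCA libraries stood above all DMSO libraries for 4 members, Lypd6, Fzd9, Ryk and Tcf7l1, which is 12.1% against 11.6% of all tested genes. All OCA libraries stood below all DMSO libraries for 6, Wnt4, Wnt5b, Fzd7, Lrp6, Dact1 and Znrf3, which is 18.2% against 11.3%. In bulk RNA, a change in the number of cells that express a gene and a change in RNA per cell cannot be told apart.

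**Figure D1:**
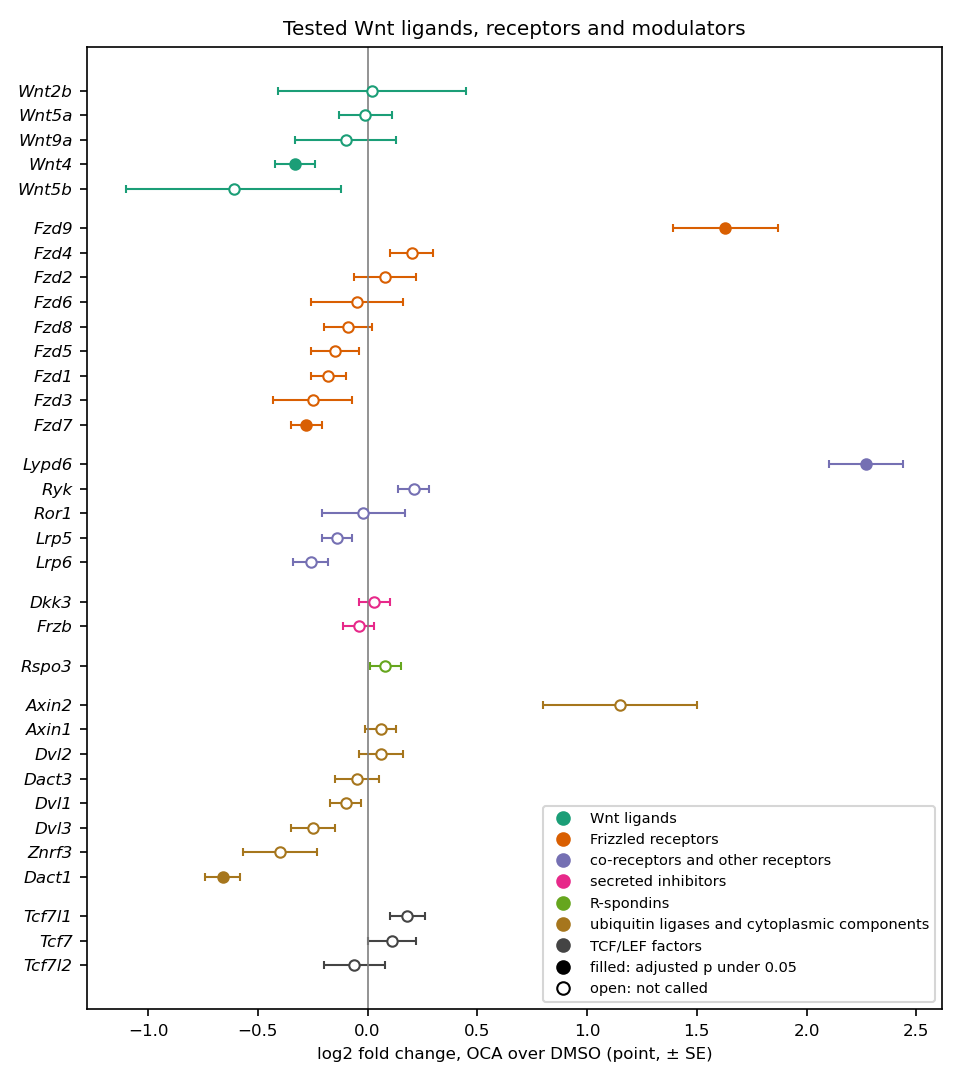
Log2 fold change of OCA over DMSO for the 33 tested Wnt genes, grouped by role; points are estimates, bars are ± SE, and filled points passed an adjusted p under 0.05. Lypd6 at 2.27 and Fzd9 at 1.63 lie far to the right, Axin2 at 1.15 has a wide bar and an open point, and most other genes lie close to 0.

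The promoters of the 5 called genes are shown first, because the treatment activates a nuclear receptor and the pathway ends in TCF/LEF factors. Each is the stretch of 250 bases before the annotated start of the gene, from RefSeq on build GRCm38.p6, written 5′ to 3′ on the strand of the gene. Lypd6 lies at chr2:50066179-50066428 on the plus strand, Fzd9 at chr5:135251048-135251297 on the minus strand, Dact1 at chr12:71309634-71309883 on the plus strand, Wnt4 at chr4:137277385-137277634 on the plus strand and Fzd7 at chr1:59481897-59482146 on the plus strand. Capitals mark the only match to a searched motif in these 5 windows.
Lypd6: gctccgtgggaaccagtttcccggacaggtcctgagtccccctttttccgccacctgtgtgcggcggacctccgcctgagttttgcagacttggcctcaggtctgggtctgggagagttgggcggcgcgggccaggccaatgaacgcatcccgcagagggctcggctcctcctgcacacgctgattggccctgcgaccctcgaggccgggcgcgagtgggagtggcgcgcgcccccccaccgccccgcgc
Fzd9: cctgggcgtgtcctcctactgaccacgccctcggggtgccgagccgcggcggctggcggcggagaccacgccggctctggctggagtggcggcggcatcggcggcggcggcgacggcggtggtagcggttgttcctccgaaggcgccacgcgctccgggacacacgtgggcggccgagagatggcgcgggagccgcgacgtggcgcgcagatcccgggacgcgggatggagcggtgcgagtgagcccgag
Dact1: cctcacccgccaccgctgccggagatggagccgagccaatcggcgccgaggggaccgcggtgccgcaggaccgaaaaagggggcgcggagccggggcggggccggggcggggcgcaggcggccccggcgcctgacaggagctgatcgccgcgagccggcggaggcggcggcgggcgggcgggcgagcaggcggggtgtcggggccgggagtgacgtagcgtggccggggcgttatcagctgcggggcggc
Wnt4: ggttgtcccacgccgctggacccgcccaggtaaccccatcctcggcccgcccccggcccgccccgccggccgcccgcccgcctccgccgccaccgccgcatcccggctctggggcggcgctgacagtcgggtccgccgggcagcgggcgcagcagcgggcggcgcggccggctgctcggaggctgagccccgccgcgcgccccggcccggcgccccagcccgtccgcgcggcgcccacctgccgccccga
Fzd7: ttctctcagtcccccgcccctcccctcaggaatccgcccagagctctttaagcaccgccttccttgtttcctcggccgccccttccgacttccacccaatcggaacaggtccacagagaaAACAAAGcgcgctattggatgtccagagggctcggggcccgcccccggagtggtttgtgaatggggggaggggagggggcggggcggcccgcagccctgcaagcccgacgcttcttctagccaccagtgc

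The motifs searched, on both strands, were the nuclear receptor half-site AGGTCA, an inverted pair of half-sites 1 base apart (IR1, the arrangement best known for FXR), and the TCF/LEF core CAAAG preceded by 2 bases that are each A or T. Every IR1 match holds AGGTCA and is also counted there. The Fzd7 window held 1 TCF/LEF match, AACAAAG, at 130 to 124 bases before the start. The windows of Lypd6, Fzd9, Dact1 and Wnt4 held none of the motifs. Over the 45 members with a window in the table, 54 windows in all, 3 held the half-site and 6 a TCF/LEF match, while IR1 was found in 0. The half-site members were Dact2, Tcf7 and Wnt16, and the TCF/LEF members were Dkk1, Fzd7, Lef1, Tcf7l2, Wnt11 and Wnt5b. Among all 32851 windows of the same length, 14% held the half-site, 14.8% a TCF/LEF match and 0.00609% an IR1. The windows were rich in G and C, at 70.4% for Lypd6, 76.4% for Fzd9, 80.4% for Dact1, 85.2% for Wnt4 and 65.2% for Fzd7. A match is a string of letters and no evidence of binding. Only exact matches were counted, and an exact IR1 was found in 2 of the 32851 windows, so its absence from member windows carries no information. Sites with other letters, or outside the 250 bases, were not searched.

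Among the ligands, Wnt4 was the most abundant and the only one called. Wnt4 is a ligand that can act with or without beta-catenin and is known from kidney and reproductive tract development (NM_009523, chromosome 4, 137277635 to 137299501, plus strand, build mm10). It had 62.9, 52.4 and 51.2 CPM in OCA A, B and C, against 69.2, 73.7 and 67.2 CPM in DMSO A, B and C. All OCA libraries were below all DMSO libraries, with OCA A closest to the vehicle. The means were 55.5 ± 6.46 CPM with OCA and 70.0 ± 3.30 CPM with DMSO (SD, n = 3 each), and OCA over DMSO was -0.33 on the log2 scale (SE 0.09, adjusted p = 0.0275 in edgeR). Leaving out 1 library ended that call for DMSO C (adjusted p = 0.0587), DMSO B (0.104), DMSO A (0.0801) and OCA C (0.139).

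Per kilobase of exonic length, Wnt4 stood at 14.5 CPM with OCA and 18.4 CPM with DMSO, which was 66.5% and 70.1% of the summed level of all 19 ligands. Next in both groups came Wnt5a, a ligand best known for signalling without beta-catenin, at 3.68 and 3.70 CPM per kilobase, and then Wnt9a at 2.01 and 2.17. These 3 did not overlap in range with one another within a group. The summed ligand level was 20.9 to 23.2 CPM per kilobase in OCA libraries and 25.1 to 26.9 in DMSO libraries, so the groups did not overlap; most of that sum is Wnt4, and the sum was not tested.

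Wnt5a had 20.3, 24.3 and 24.7 CPM with OCA and 23.5, 20.5 and 25.6 CPM with DMSO, and OCA over DMSO was -0.01 on the log2 scale (SE 0.12, adjusted p = 0.968 in edgeR). The groups overlapped. Wnt9a (log2 fold change -0.10, SE 0.23) and Wnt2b (0.02, SE 0.43), both linked to the beta-catenin pathway, also overlapped and were not called. Wnt5b, the close relative of Wnt5a, had 0.30, 1.84 and 1.73 CPM with OCA and 1.93, 2.01 and 1.98 CPM with DMSO. Its groups did not overlap, but the low OCA value was that of OCA A alone. Its log2 fold change was -0.61 (SE 0.49, adjusted p = 0.543 in edgeR) and -0.14 without OCA A.

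The other 14 ligands were below the count filter. Wnt7a, Wnt7b, Wnt3, Wnt3a and Wnt9b had 0 counts in every library, and a count of 0 allows up to 3 counts, or 0.181 to 0.251 CPM depending on the library. Wnt11, a ligand known for cell movement in the embryo, had 6, 8 and 12 counts with OCA and 4, 1 and 9.5 counts with DMSO. The groups overlapped, and the ratio of the sums scaled for depth was 2.08 (95% interval 1.05 to 4.32, counting error only). For that ratio the DMSO sum of 14.5 was rounded down. Wnt6, a ligand of epithelia, had 1 count over the OCA libraries and 10 over the DMSO libraries, with 1 count each in OCA C and DMSO A. Its ratio was 0.112 (0.00259 to 0.789, counting error only), and the groups overlapped. Wnt2, an endothelial ligand of the liver, had 11 counts with OCA, all in OCA A, and 13 with DMSO, a ratio of 0.95 (0.385 to 2.3). The remaining untested ligands, Wnt1, Wnt8a, Wnt8b, Wnt10a, Wnt10b and Wnt16, had 1.5 to 6 counts over all libraries.

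**Figure D2:**
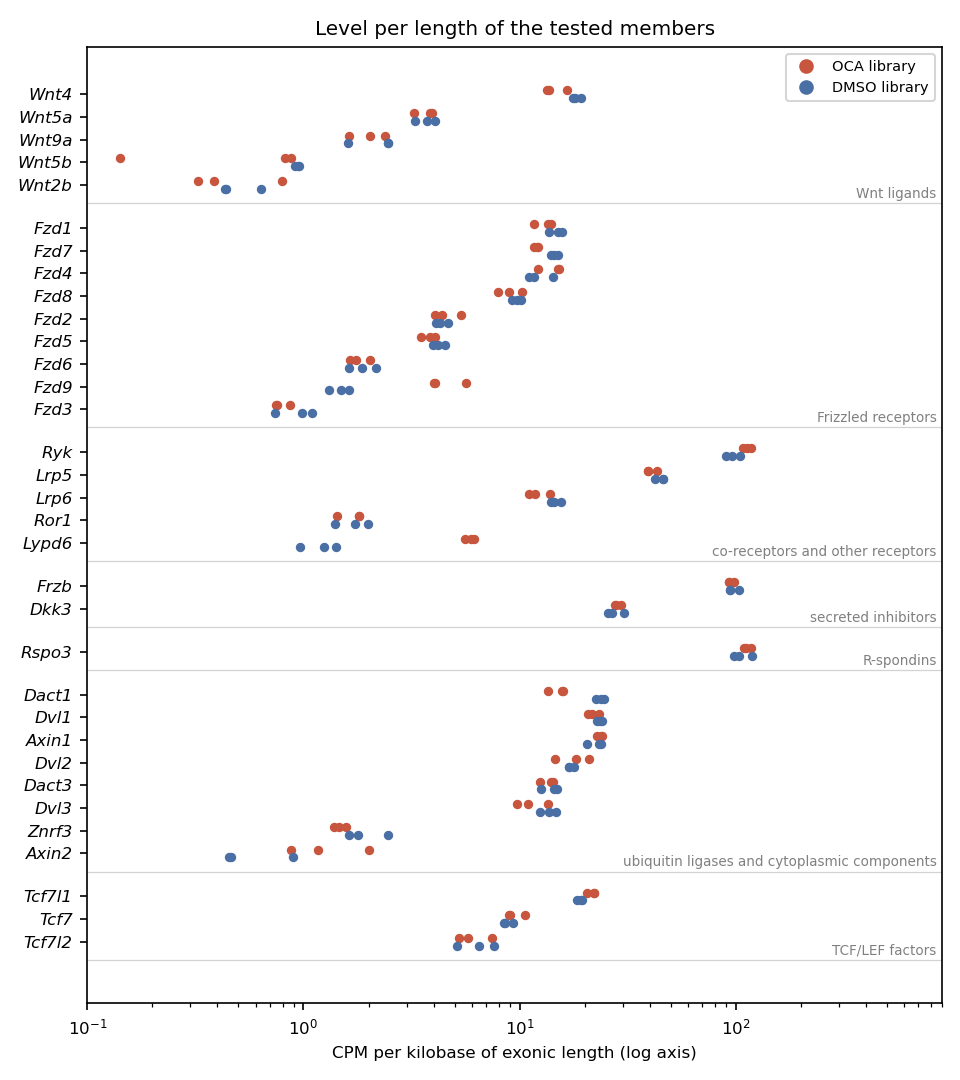
Level of each tested Wnt gene in every library, as CPM per kilobase of exonic length on a log axis; each row is a gene, with OCA libraries above DMSO libraries, and genes are grouped by role. Ryk, Rspo3 and Frzb stand near 100 in both groups, Wnt4 leads the ligands, and the OCA and DMSO points of Lypd6, Fzd9 and Dact1 are apart.

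Fzd9 rose with OCA while Fzd7 fell, and the other 7 tested Frizzled genes did not pass. The Fzd9 call held in all 18 alternatives, while the Fzd7 call was lost in several, given below. Frizzled receptors are membrane proteins that bind Wnt ligands through a cysteine-rich domain. Fzd9, known from bone and brain (NM_010246, chromosome 5, 135248938 to 135251047, minus strand), had 11.9, 8.43 and 8.60 CPM in OCA A, B and C, against 3.14, 2.76 and 3.42 CPM in DMSO A, B and C. Every OCA library was well above every DMSO library, and OCA A was the highest. The counts behind these values were 158.5, 110 and 109.5 with OCA and 52, 33 and 52.5 with DMSO. The means were 9.64 ± 1.95 CPM with OCA and 3.10 ± 0.329 CPM with DMSO (SD, n = 3 each), a 3.10-fold difference (log2 fold change 1.63, SE 0.24, adjusted p = 0.00023 in edgeR). It ranked 23 by log2 fold change among the 276 higher genes.

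The place of Fzd9 among the receptors differed between the groups. With OCA it stood at 4.58 CPM per kilobase, rank 6 of 10, overlapping Fzd2 (4.59) and Fzd5 (3.81). With DMSO it stood at 1.47, rank 8, overlapping Fzd6 (1.88). Its share of the summed Frizzled level was 7.17% with OCA and 2.30% with DMSO, and that sum was 63.8 ± 5.25 CPM per kilobase with OCA and 64.1 ± 2.79 with DMSO (SD, n = 3 each). The most abundant receptors were Fzd4, Fzd1 and Fzd7 in both groups, at 14.1, 13.1 and 11.9 CPM per kilobase with OCA and 12.3, 14.8 and 14.4 with DMSO, and neighbours among them overlapped in each group.

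Fzd7, a receptor of stem and progenitor cells (NM_008057, chromosome 1, 59482147 to 59486955, plus strand), had 58.1, 57.8 and 55.9 CPM in OCA A, B and C, against 69.4, 66.6 and 72.0 CPM in DMSO A, B and C. The OCA libraries lay close together, all below the DMSO libraries. The means were 57.3 ± 1.23 CPM with OCA and 69.3 ± 2.69 CPM with DMSO (SD, n = 3 each), and OCA over DMSO was -0.28 on the log2 scale (SE 0.07, adjusted p = 0.0329 in edgeR). The call was lost with offsets for a trend of counts with transcript length (adjusted p = 0.097) and when a library was left out: DMSO C (0.144), DMSO B (0.0595), DMSO A (0.0991), OCA C (0.134) or OCA A (0.0823).

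Fzd1, a receptor used by several ligands, had 60.9, 59.0 and 51.3 CPM in OCA A, B and C, against 68.5, 65.7 and 59.9 CPM in DMSO A, B and C. OCA A lay just above DMSO C, and the log2 fold change was -0.18 (SE 0.08, adjusted p = 0.255 in edgeR). Fzd4, which also binds norrin in blood vessels of the retina, had 52.0 ± 6.16 CPM with OCA and 45.3 ± 6.13 with DMSO (SD, n = 3 each; adjusted p = 0.316 in edgeR). Its groups overlapped as well. The log2 fold changes of Fzd2, Fzd3, Fzd5, Fzd6 and Fzd8 ran between -0.25 and 0.08, with overlapping groups and no call. Fzd10 was not tested, with 11 counts over the OCA libraries and 8 over the DMSO libraries, a ratio of 1.54 (0.566 to 4.42, counting error only).

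Lypd6 had the largest rise of the whole set. It encodes a small membrane-anchored protein of the Ly6 family that binds Lrp6 and raises beta-catenin signalling in zebrafish embryos. The table identifies its row by NR_033304, a RefSeq transcript on chromosome 2, 50066429 to 50193569, plus strand. RefSeq uses the prefix NR for non-coding transcripts, whereas the rows of the other called members have the coding prefix NM. Whether the Lypd6 counts come from coding or non-coding transcripts was not determined. Lypd6 had 22.4, 21.9 and 20.4 CPM in OCA A, B and C, against 4.56, 3.51 and 5.14 CPM in DMSO A, B and C. The groups were far apart, and the libraries within each lay close together. The counts were 298.5, 285 and 259.5 with OCA and 75.5, 42 and 79 with DMSO. The means were 21.5 ± 1.05 CPM with OCA and 4.40 ± 0.825 CPM with DMSO (SD, n = 3 each), a 4.83-fold difference (log2 fold change 2.27, SE 0.17, adjusted p = 3.27e-08 in edgeR). It ranked 10 by log2 fold change among the 276 higher genes. Its paralog Lypd6b had 0 counts in all libraries.

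The other co-receptors and receptors were not called. Ryk, an atypical tyrosine kinase receptor for Wnt5a and other ligands, was the most abundant of this group, with 113 CPM per kilobase with OCA and 97.2 with DMSO. It had 383, 350 and 366 CPM in OCA A, B and C, against 294, 342 and 312 CPM in DMSO A, B and C. The OCA libraries were all above the DMSO libraries, by a narrow margin between OCA B and DMSO B. The log2 fold change was 0.21 (SE 0.07, adjusted p = 0.10 in edgeR), and it passed with DESeq2 (0.0389), without the count filter (0.0434) and without DMSO B (0.0286).

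Lrp6, the co-receptor that carries the beta-catenin signal with Frizzled, had 104, 129 and 110 CPM in OCA A, B and C, against 145, 134 and 131 CPM in DMSO A, B and C. All OCA libraries were below the DMSO libraries, with OCA B close to DMSO C. The log2 fold change was -0.26 (SE 0.08, adjusted p = 0.0608 in edgeR), 0.00212 without OCA B and 0.503 with length trend offsets, where the estimate was -0.09. It passed in 7 of 18 alternatives. The span of the long non-coding RNA Gm52921 (2617 bases) lies within the gene and holds 102 of its exonic bases, and the exons and strand of Gm52921 were not determined. Lrp5, its relative, had 209 ± 12.5 CPM with OCA and 230 ± 11.6 with DMSO (SD, n = 3 each; log2 fold change -0.14, adjusted p = 0.286 in edgeR). Ror1, a receptor for Wnt5a, had a log2 fold change of -0.02, and its relative Ror2 had 0 counts with OCA and 1.5 with DMSO.

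**Figure D3:**
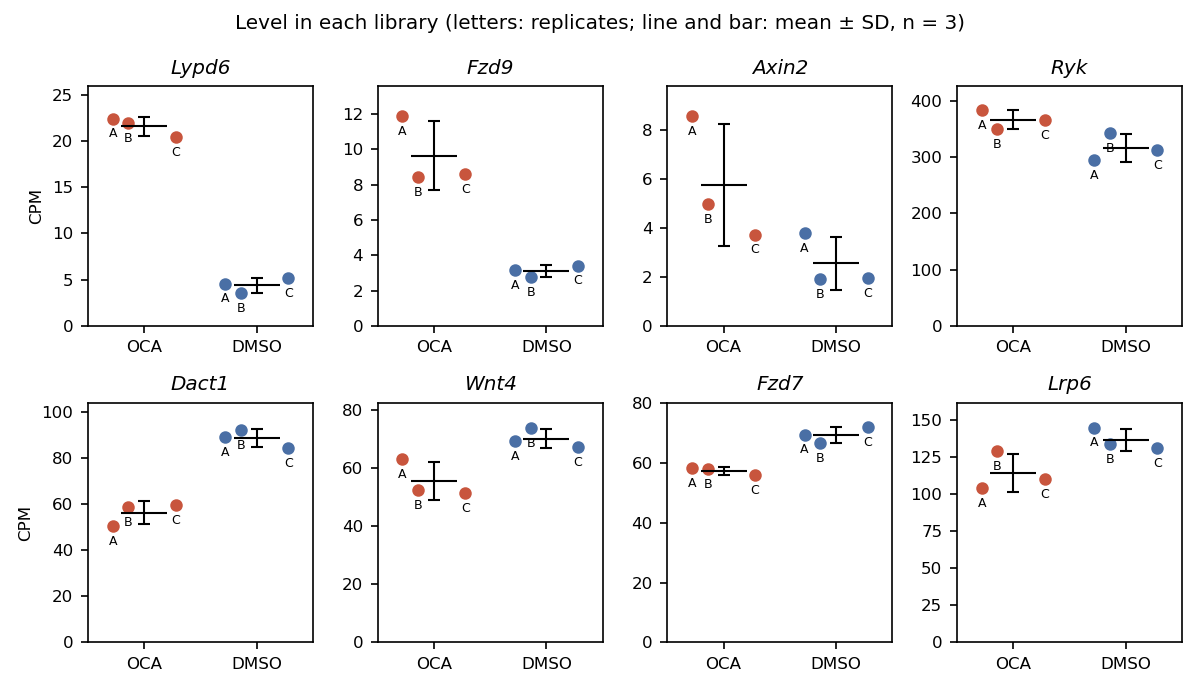
CPM in each library for the 5 called Wnt genes and for Axin2, Ryk and Lrp6, with OCA left of DMSO; letters name the replicates, and the line and bar are mean ± SD (n = 3), on axes that start at 0. The OCA and DMSO points of Lypd6, Fzd9 and Dact1 are far apart, those of Wnt4, Fzd7, Ryk and Lrp6 are close without overlap, and those of Axin2 overlap between OCA C and DMSO A.

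None of the tested secreted inhibitors or R-spondins was called, and each class had a single most abundant gene. Frzb, a secreted Frizzled-related inhibitor first known from cartilage, had 270, 286 and 272 CPM with OCA and 275, 301 and 275 CPM with DMSO. The groups overlapped, and the log2 fold change was -0.04 (SE 0.07, adjusted p = 0.805 in edgeR). Dkk3, a Dickkopf relative whose role in Wnt signalling is disputed, was the other tested inhibitor, with 96.8 ± 3.53 CPM with OCA and 94.7 ± 8.49 with DMSO (SD, n = 3 each; adjusted p = 0.842 in edgeR). The other 8 inhibitors had too few counts to be tested: Sfrp4 and Dkk4 had 0 counts, Dkk1, Dkk2, Sfrp2, Sfrp5 and Wif1 had 1 to 5 counts over all libraries, and Sfrp1 had 16 with OCA and 21.5 with DMSO. The Sfrp1 ratio was 0.816 (0.401 to 1.63, counting error only).

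Rspo3, the R-spondin that binds Lgr receptors and strengthens Wnt signals, was among the most abundant members, with 113 CPM per kilobase with OCA and 107 with DMSO. It had 281, 260 and 266 CPM with OCA and 235, 283 and 249 CPM with DMSO. The groups overlapped, since DMSO B was the highest library of all. The log2 fold change was 0.08 (SE 0.07, adjusted p = 0.625 in edgeR). Rspo1 and Rspo4 had 0 counts, and Rspo2 had 1 with OCA and 3 with DMSO.

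Inside the cell, Dact1 fell. Dact1 encodes a Dishevelled-binding protein that can damp Wnt signalling (NM_001190466, chromosome 12, 71309884 to 71320107, plus strand). It had 50.5, 58.8 and 59.6 CPM in OCA A, B and C, against 89.2, 92.3 and 84.5 CPM in DMSO A, B and C. The groups were well apart, and OCA A was the lowest library. The means were 56.3 ± 5.02 CPM with OCA and 88.7 ± 3.93 CPM with DMSO (SD, n = 3 each), and OCA over DMSO was -0.66 on the log2 scale (SE 0.08, adjusted p = 2.15e-05 in edgeR). By p it ranked 2 among the 384 lower genes. Its RefSeq span overlaps that of 2700049A03Rik on the same strand by 81 bases, all exonic in Dact1. The exons of both genes in another annotation, GENCODE, share 0 bases. Since spans and exons come from different annotations, reads shared with 2700049A03Rik (1441.5 counts over all libraries) were not excluded there. Among the 10 ubiquitin ligases and cytoplasmic components it was rank 4 by level with OCA, at 15 CPM per kilobase, and rank 1 with DMSO, at 23.6, where it overlapped Dvl1 at 23.5.

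Axin2, a scaffold of the beta-catenin destruction complex and a widely used readout of beta-catenin signalling, had 8.56, 4.98 and 3.73 CPM in OCA A, B and C, against 3.80, 1.92 and 1.95 CPM in DMSO A, B and C. OCA A was the highest library by far, and OCA C lay just below DMSO A. The means were 5.76 ± 2.50 CPM with OCA and 2.56 ± 1.08 CPM with DMSO (SD, n = 3 each), and OCA over DMSO was 1.15 on the log2 scale (SE 0.35, adjusted p = 0.0608 in edgeR). The adjusted p lay on both sides of the threshold: 0.0174 with a replicate block, 0.0463 with robust estimation and 0.029 with length trend offsets, but 0.343 without OCA A. It passed in 8 of 18 alternatives.

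Axin1, the constitutive scaffold of the same complex, was the most abundant of this role over all libraries. It had 89.8, 86.1 and 90.2 CPM in OCA A, B and C, against 88.1, 89.5 and 77.5 CPM in DMSO A, B and C, with overlapping groups. Axin1, Dvl1, Dvl2 and Dact3 had log2 fold changes between -0.10 and 0.06 and no call. The Dvl genes encode Dishevelled proteins that relay the receptor signal, and Dact3 is a relative of Dact1. Dvl3 had 47.3, 65.8 and 52.6 CPM with OCA and 71.1, 66.2 and 60.1 CPM with DMSO. OCA B stood inside the DMSO range, and the other OCA libraries were below it. Its log2 fold change was -0.25 (SE 0.10, adjusted p = 0.175 in edgeR) and its adjusted p 0.00437 without OCA B. Znrf3, the ubiquitin ligase that removes Frizzled receptors from the membrane, had 10.5, 11.3 and 9.93 CPM with OCA and 12.8, 17.6 and 11.7 CPM with DMSO. These groups did not overlap, by a narrow margin between OCA B and DMSO C, and the log2 fold change of -0.40 (SE 0.17, adjusted p = 0.218 in edgeR) was not called. Rnf43 had 1.5 counts with OCA and 0 with DMSO. Dact2, the remaining Dact gene, had 30 counts with OCA and 17.5 with DMSO, with overlapping groups. Its ratio, with the DMSO sum rounded up, was 1.87 (1.01 to 3.56, counting error only).

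The TCF/LEF factors, which carry beta-catenin to its target genes, had 3 tested members and no call. Tcf7l1, mostly a repressor, was the most abundant, with 63.0, 63.6 and 58.5 CPM with OCA and 55.1, 55.7 and 53.0 CPM with DMSO. All OCA libraries were above all DMSO libraries, and the log2 fold change was 0.18 (SE 0.08, adjusted p = 0.204 in edgeR). Tcf7 (0.11) and Tcf7l2 (-0.06) overlapped between groups. Lef1, the factor that is itself a target of the pathway, had 16 counts with OCA and 17.5 with DMSO, a ratio of 0.998 (0.476 to 2.07, counting error only).

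**Figure D4:**
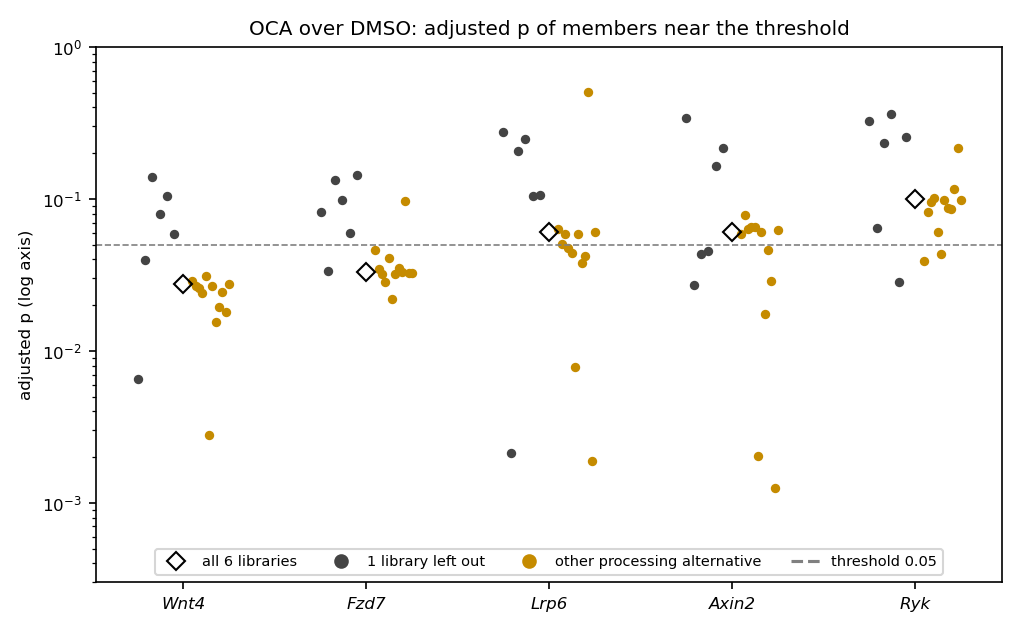
Adjusted p (log axis) of the 5 Wnt genes nearest the threshold with all libraries, with 1 library left out and under the other processing alternatives; the dashed line is 0.05. Wnt4 and Fzd7 lie below the line with all libraries and cross it when single libraries are left out, and Lrp6, Axin2 and Ryk lie above it and cross it the other way.

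Of 61 symbols listed for Wnt pathway genes outside the set, 60 were in the table and 46 were tested: 1 was higher and 1 was lower, while 44 did not pass. The symbol not found, Tle5, is another name of Aes, which is counted. Each call is 2.17% of the tested genes of the list, near the 2.18% higher and below the 3.03% lower of all tested genes, and the median log2 fold change was 0.00. Daam2, a formin that binds Dishevelled, had 113, 92.5 and 92.4 CPM in OCA A, B and C, against 73.8, 76.9 and 66.9 CPM in DMSO A, B and C. No library overlapped between groups, and the log2 fold change was 0.45 (SE 0.08, adjusted p = 0.0027 in edgeR). Csnk1g1, a casein kinase that phosphorylates Lrp6, averaged 82.7 ± 4.67 CPM with OCA and 98.7 ± 3.09 CPM with DMSO (SD, n = 3 each; log2 fold change -0.25, adjusted p = 0.0375 in edgeR). That call was lost with length trend offsets (0.296) and without DMSO C (0.0809), DMSO B (0.0866), DMSO A (0.141), OCA C (0.182) or OCA A (0.115). Beta-catenin itself (Ctnnb1) had 498 ± 11.4 CPM with OCA and 490 ± 28.2 with DMSO, and the Wnt secretion factor Wls had 265 ± 8.11 CPM with OCA and 256 ± 14 with DMSO (SD, n = 3 each); neither was called.

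Of 36 symbols listed for Wnt targets in various tissues, 34 were in the table and 21 were tested, with 1 higher, 4 lower and 16 that did not pass. The symbols not found, Ccn4 and Ccn5, are other names of Wisp1 and Wisp2, which are counted. The higher gene is 4.76% of those tested, against 2.18% of all tested genes, and the lower genes are 19%, against 3.03%. The list was chosen with earlier results of these data known, so these shares are description only and no test of the pathway. This list leaves out Axin2, Lef1, Tcf7, Rnf43, Znrf3 and Dkk1, which are also Wnt targets but are counted in the set. Of these, Axin2 (log2 fold change 1.15), Tcf7 (0.11) and Znrf3 (-0.40) were tested, without a call. Over the 21 tested genes of the list, the median log2 fold change was -0.13, and 14 lay below 0. Nkd1, a Dishevelled-binding feedback inhibitor and often a target of beta-catenin, had 133, 117 and 108 CPM in OCA A, B and C, against 83.3, 85.5 and 81.1 CPM in DMSO A, B and C. All OCA libraries were above the DMSO libraries, and OCA over DMSO was 0.52 on the log2 scale (SE 0.08, adjusted p = 0.000278 in edgeR). Wisp1, a matricellular protein of the CCN family, had 60.2, 77.5 and 62.8 CPM in OCA A, B and C, against 115, 108 and 119 CPM in DMSO A, B and C. Here all OCA libraries were below, and OCA over DMSO was -0.77 on the log2 scale (SE 0.08, adjusted p = 6.77e-06 in edgeR).

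The Notch ligand Jag1 had 60.7 ± 16.4 CPM with OCA and 103 ± 14 with DMSO (SD, n = 3 each; adjusted p = 0.00124 in edgeR, and 0.175 with robust estimation). The growth regulator Myc had 79.8 ± 12.3 CPM with OCA and 111 ± 2.46 with DMSO (SD, n = 3 each; adjusted p = 0.00251 in edgeR). The remaining lower gene was Bambi, a decoy receptor of the TGF-beta family, with 48.3 ± 1.71 CPM with OCA and 64.1 ± 1.74 with DMSO (SD, n = 3 each; adjusted p = 0.00279 in edgeR); it was named after its values were seen. The feedback targets Sp5 and Lgr5 had 0 and 6 counts over all libraries.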

How the data were processed

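Polyadenylated RNA was sequenced from 6 libraries with the NEBNext Ultra chemistry, per the labels' protocols. The submitters' processing notes name STAR, HOMER and mm10. Not given in the sources used here are versions, strand setting and how multiply mapped reads were handled. Exon counts per gene, deposited by the authors in steps of 0.5, were handled like estimated counts and rounded before testing, since 26.5% to 29.8% of each column were not whole. The deposited exonic lengths gave CPM per kilobase.

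The whole table entered the comparison of OCA with DMSO (edgeR 4.0.16, R 4.3.3), with TMM scaling after filterByExpr and the quasi-likelihood test without robust estimation, two-sided, Benjamini-Hochberg adjustment over 12687 genes, threshold 0.05. SE is the log2 fold change divided by the square root of F. CPM values use TMM-scaled library sizes. The 30 members below the filter had 0 to 47.5 counts in all, and ratios of their sums have exact 95% intervals scaled for depth. Sums were rounded to whole numbers for these ratios, those ending in 0.5 to the nearest even number. Ratios were formed where each group had at least 1 count. Among these members only the intervals of Wnt11, Wnt6 and Dact2 left out a ratio of 1, and those not printed all held it. All these intervals cover counting error only and leave out the spread between libraries. For Wnt11, Wnt6 and Dact2 the groups overlapped. Chi-square per degree of freedom between libraries of a group was 4.4 to 8.02, so none was a repeat deposit.

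Alternatives were DESeq2 1.42.0, limma-voom (limma 3.58.1), scaling by RLE, upper quartile or totals, no filter or a mean of 1 CPM, robust estimation, a replicate block, offsets from a loess curve on transcript length in each library, unrounded counts, leaving out each library, and leaving out OCA B and DMSO A together. The members, gene lists, markers and alternatives were chosen with earlier results of these data known. Full statistics are given for each called member, and values in every library also for the most abundant member of each role (mean CPM per kilobase over all libraries) and, where a role had no call, the smallest p; Axin2, Lrp6, Dvl3, Znrf3, Wnt5a and Wnt5b were added after their values were seen. Counts of Wnt11 in every library are also given outside this rule. From the pathway and target lists, up to 4 called genes with the smallest p were named by rule, and Ctnnb1, Wls, Sp5 and Lgr5 were added. Motifs were searched in RefSeq windows of build GRCm38.p6, the same assembly as mm10.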

Additional observations from a re-analysis of the deposited data

How the results depend on the processing

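Lypd6, Fzd9 and Dact1 were called in all 18 alternatives, and no called member changed direction in any of them. Higher members numbered 2 with all libraries and 4 without the count filter, which added Axin2 and Ryk. Lower members numbered 3 with all libraries, 5 without OCA B and DMSO A, and 1 to 5 when 1 library was left out, with 1 for any of the DMSO libraries or OCA C. Over all genes, 276 were higher and 384 lower. Leaving out 1 library gave 161 to 363 higher and 104 to 758 lower genes. Lower genes numbered 703 without the filter and 605 without OCA B and DMSO A. Length trend offsets gave 376 higher and 231 lower genes. The cause of these moves was not tested. With a replicate block, 3 members were higher and 4 lower (added: Axin2 and Lrp6), and over all genes 306 were higher and 508 lower. The labels do not say what the shared replicate letters mark. Deviations of libraries with the same letter from their group means correlated at 0.000511, -0.0433 and 0.0535 for A, B and C. Whether libraries with the same letter share a mouse or a preparation was not tested. Of the 28 members that were not called, 12 changed the sign of their log2 fold change in some alternative. A sign kept in every alternative does not establish direction either, since all alternatives draw on the same libraries. Direction is not established for any of the 28. Depth limits the 30 untested members, for which 3 counts are 0.181 to 0.251 CPM.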
